A study of Mus musculus with 9 samples.

Results

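The genes described are 6 markers of pyramidal neurons of hippocampal field CA1, chosen by symbol out of 18820 genes on arrays of whole hippocampus. The mice were C57BL/6, 12 to 14 weeks of age. They are Wfs1, Fibcd1, Pou3f1, Man1a, Mpped1 and Spink8, and each was read by 1 probe set that names no other gene. The study compared 3 groups of 3 biological replicates: control mice, mice with a tibia fracture made by orthopaedic surgery (surgery), and mice that received Maresin 1 ahead of such a fracture (Maresin 1). Maresin 1, a product of docosahexaenoic acid in macrophages, acts in the resolution of inflammation. Tissue was collected 72 h after the fracture. The sources used here do not give the Maresin 1 dose or say whether control mice had anaesthesia or a vehicle. The tissue was not sorted, so that fewer CA1 neurons in a sample and less RNA per CA1 neuron cannot be told apart.

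CA1 is the output field of the hippocampal circuit: its pyramidal neurons receive the Schaffer collaterals of CA3 and project to the subiculum and the cortex. They carry transcripts that CA3 pyramidal neurons and dentate granule neurons have at much lower levels, and such transcripts are used as markers of the field in sections and in single cells. In RNA of dissected tissue their level moves with the share of CA1 in the sample as well as with expression in each cell.

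Levels are given as log2 of the quantile-normalized signal plus 16, where a step of 1 is a doubling of that sum. All 6 markers lay above 5.86 in every array, the 95th percentile of 990 olfactory receptor genes, which brain hardly expresses and which serve as a guide to background. The medians of the deposited signals ran from 54.1 to 100 between the 9 arrays. Control replicates 2 and 3 stood apart from the other 7 arrays by transcripts of choroid plexus epithelium, the source of cerebrospinal fluid: their scores over 11 measured genes of that list were 2.64 and 2.98, against -0.96 to -0.63 elsewhere. For each of the 6 markers the differences from control are therefore also given against control replicate 1 alone. That array is a single sample and had the highest median signal, 100. Its scores for dentate granule neuron genes (-0.26) and astrocyte genes (-0.20) were the lowest of the 9 arrays.

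None of the 6 markers differed between any pair of groups beyond the test across all genes. The test was limma's moderated test with Benjamini-Hochberg adjustment, with genes called at an adjusted p under 0.05. Their adjusted p ran from 0.786 to 0.979 for surgery against control, from 0.859 to 0.999 for Maresin 1 against surgery and from 0.416 to 0.958 for Maresin 1 against control. The share of all genes called was 0% in the first comparison, 0% in the second and 0.0850% in the third. At an unadjusted p under 0.05 stood 1, 2 and 1 of the 6 markers, beside 6.21%, 5.66% and 11.5% of all genes. In the direction of those markers the shares of all genes were 3.90% (higher after surgery than in control), 3.70% (lower with Maresin 1 than after surgery) and 5.87% (higher with Maresin 1 than in control). The highest array exceeded the lowest of the 9 by 1.25-fold for Man1a, 1.30-fold for Mpped1, 1.32-fold for Pou3f1, 1.39-fold for Wfs1, 1.46-fold for Fibcd1 and 1.56-fold for Spink8.

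**Figure D1:**
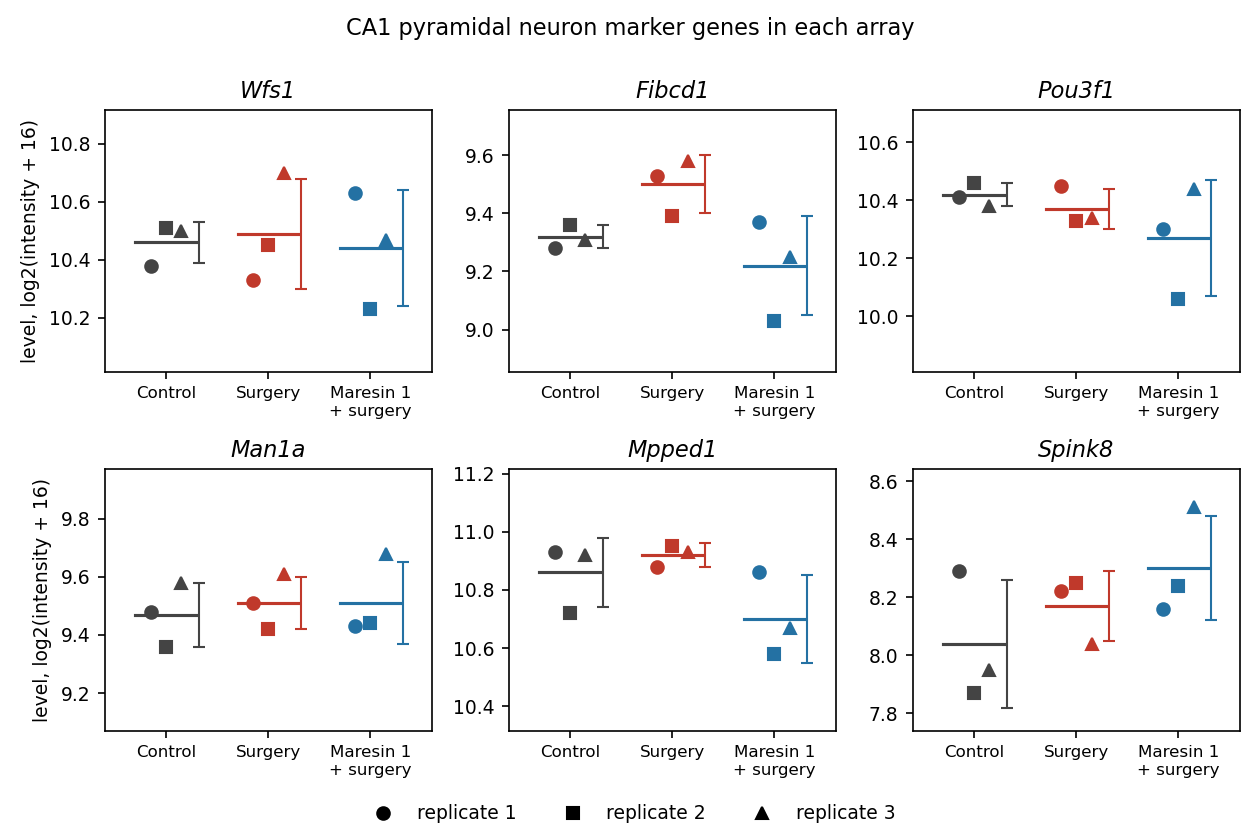
Level of each marker in the 9 arrays, as log2 of the normalized signal plus 16. Points are arrays, with a shape for each replicate number, horizontal lines are group means, bars are 1 SD (n = 3), and every panel spans the same height. Fibcd1 after surgery (9.39 to 9.58) lies above both other groups, Maresin 1 replicate 2 is the lowest array for Wfs1, Fibcd1, Pou3f1 and Mpped1, and the groups overlap in all 3 comparisons for Wfs1, Pou3f1, Man1a and Spink8.

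Fibcd1 encodes a transmembrane protein with a fibrinogen-like domain that binds acetylated sugars such as chitin. Its levels were 9.28, 9.36 and 9.31 in control replicates 1 to 3, 9.53, 9.39 and 9.58 after surgery, and 9.37, 9.03 and 9.25 with Maresin 1. All surgery arrays lay above all control arrays and above all Maresin 1 arrays, while control and Maresin 1 overlapped. The level was 1.22-fold lower with Maresin 1 than after surgery (log2 -0.28, SE 0.08, 95% interval -0.46 to -0.11, unadjusted p = 0.00427, limma adjusted p = 0.859, n = 3 per group), 62nd of 18820 genes by p. Surgery stood 1.13-fold above control (log2 0.18, SE 0.08, limma adjusted p = 0.786), and 0.21 above control replicate 1 alone. Maresin 1 differed from control by -0.10 (SE 0.08), and by -0.07 from control replicate 1. The surgery difference from control and the Maresin 1 difference from surgery use the same surgery arrays, so they do not stand as separate observations. Without surgery replicate 3 the surgery difference from control was 0.14, and without Maresin 1 replicate 2 the Maresin 1 difference from surgery was -0.19. With each array centred on its median in place of quantile normalization these differences were 0.32 and -0.40, beside shifts of 0.10 and -0.09 in the median of all genes.

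Mpped1, which encodes a protein of the metallophosphoesterase family made mainly in brain, followed a like order. It was at 10.93, 10.72 and 10.92 in control, 10.88, 10.95 and 10.93 after surgery, and 10.86, 10.58 and 10.67 with Maresin 1. The surgery arrays were close to each other and above every Maresin 1 array, and control replicate 2 lay among the Maresin 1 values. The difference of Maresin 1 from surgery was 1.16-fold (log2 -0.22, SE 0.07, 95% interval -0.38 to -0.06, unadjusted p = 0.0109, limma adjusted p = 0.859). Surgery and control differed by 0.06 (SE 0.07), and by -0.01 with control replicate 1 as the only control. Maresin 1 differed from control by -0.16 (SE 0.07, adjusted p = 0.446), and by -0.23 against control replicate 1 alone.

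Fibcd1 and Mpped1 were thus the 2 of 6 markers whose Maresin 1 arrays did not overlap the surgery arrays, both lower, where 8.20% of all genes were lower without overlap and 13.0% did not overlap in either direction. Between surgery and control 1 of 6 markers did not overlap, beside 11.5% of all genes and 7.71% that were higher after surgery, and between Maresin 1 and control 0 of 6, beside 14.3%. The markers were proposed with results of these data known, so these shares are a description. RefSeq sequence before the start is shown for these markers and for Wfs1, since the table used holds 4 of the 6 markers, without Pou3f1 and Spink8. Each is the 250 bases before a listed start, 5′ to 3′ on the strand of the gene, in build GRCm38.p6: Fibcd1 at chr2:31846006-31846255 on the minus strand, Mpped1 at chr15:83779773-83780022 on the plus strand and Wfs1 at chr5:36988983-36989232 on the minus strand. Capitals mark the GC box GGGCGG and the CCAAT box, each read on both strands.
Fibcd1: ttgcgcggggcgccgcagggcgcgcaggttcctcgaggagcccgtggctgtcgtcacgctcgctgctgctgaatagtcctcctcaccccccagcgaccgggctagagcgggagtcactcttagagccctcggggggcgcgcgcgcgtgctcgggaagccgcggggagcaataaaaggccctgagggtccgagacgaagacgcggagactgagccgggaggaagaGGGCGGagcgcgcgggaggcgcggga
Mpped1: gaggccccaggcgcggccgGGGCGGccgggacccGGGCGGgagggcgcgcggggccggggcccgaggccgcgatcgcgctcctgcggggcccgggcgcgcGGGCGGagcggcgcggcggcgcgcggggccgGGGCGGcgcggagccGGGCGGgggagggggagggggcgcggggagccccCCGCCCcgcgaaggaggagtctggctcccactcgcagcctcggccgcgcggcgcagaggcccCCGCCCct
Wfs1: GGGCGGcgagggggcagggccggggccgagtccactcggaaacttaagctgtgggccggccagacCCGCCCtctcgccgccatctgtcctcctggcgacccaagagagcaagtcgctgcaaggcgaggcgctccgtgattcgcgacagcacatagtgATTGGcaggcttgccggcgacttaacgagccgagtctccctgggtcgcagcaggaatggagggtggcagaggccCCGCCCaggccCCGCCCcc
The stretch before Mpped1 held 7 GC boxes and that before Fibcd1 held 1, while Wfs1 had 4 and also 1 CCAAT box. A GC box was present in 32.7% of all 32851 windows of this length, and a CCAAT box in 33.8%. CpG pairs numbered 47 for Mpped1, 34 for Fibcd1 and 23 for Wfs1, against a median of 6 over all windows. Man1a, not printed, had 31 CpG pairs, 2 GC boxes and 1 CCAAT box. The TATA box TATAAA and the octamer ATGCAAAT, a motif of POU proteins such as that of Pou3f1, were in none of the windows of these 4 genes, and in 12.4% and 1.6% of all windows. A second listed start of Mpped1 had 2 CpG pairs and 0 GC boxes. The array does not tell which start was in use.

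**Figure D2:**
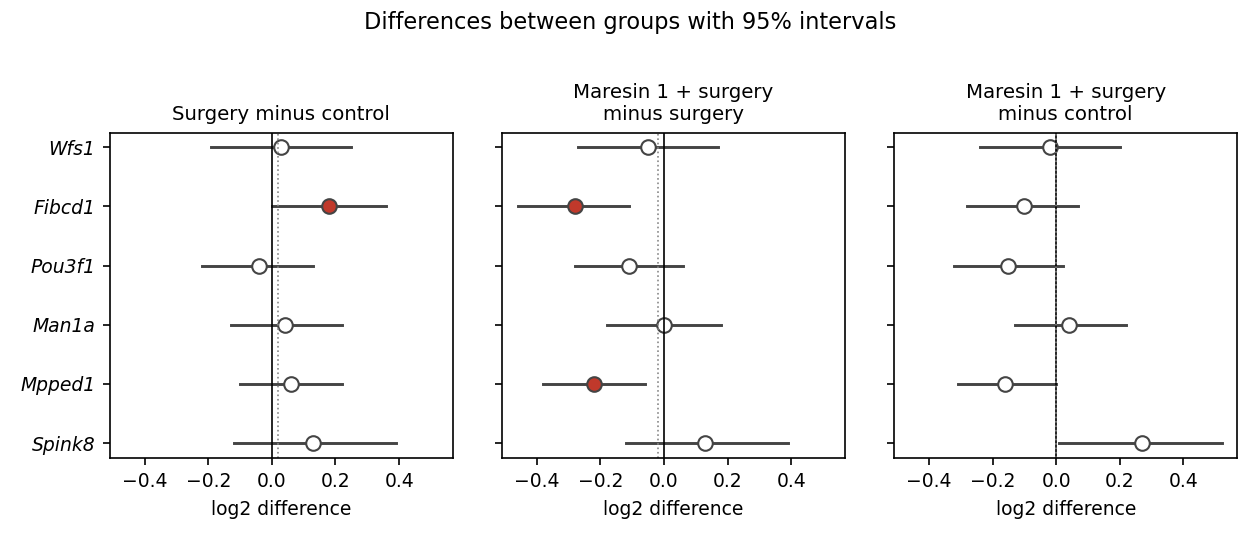
Difference between groups for each marker on the log2 scale, with limma's 95% interval (n = 3 per group). Filled points are markers whose arrays do not overlap between the groups, the solid line is 0 and the dotted line is the median of all genes (0.02, -0.02 and 0.00 from left to right). Fibcd1 (-0.28) and Mpped1 (-0.22) lie farthest from 0 in the middle panel, and Spink8 (0.27) in the right one.

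Spink8 encodes a small secreted protein of the Kazal family, whose members inhibit serine proteases. Its levels were 8.29, 7.87 and 7.95 in control, 8.22, 8.25 and 8.04 after surgery, and 8.16, 8.24 and 8.51 with Maresin 1. Control replicate 1 lay inside the range of the operated mice and control replicates 2 and 3 lay below it. The Maresin 1 mean was 1.20-fold above control (log2 0.27, SE 0.12, 95% interval 0.01 to 0.52, unadjusted p = 0.0433, limma adjusted p = 0.416), with the opposite sign from Mpped1, Pou3f1 and Fibcd1 in the same comparison. Against control replicate 1 alone it was 0.01, and without control replicate 1 it was 0.39. The choroid plexus scores of control replicates 2 and 3 move with this difference, and their part in it was not tested. Surgery differed from control by 0.13 (SE 0.12), and by -0.12 from control replicate 1. Maresin 1 and surgery differed by 0.13 (SE 0.12), with overlap.

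Wfs1 encodes wolframin, a membrane glycoprotein of the endoplasmic reticulum whose loss causes Wolfram syndrome, and is among the most used markers of CA1. It was at 10.38, 10.51 and 10.50 in control, 10.33, 10.45 and 10.70 after surgery, and 10.63, 10.23 and 10.47 with Maresin 1. Control arrays lay inside the range of each operated group, and the surgery and Maresin 1 arrays spanned the same levels. Group means were 10.46 ± 0.07 (SD, n = 3), 10.49 ± 0.19 and 10.44 ± 0.20. The differences were 0.03 for surgery against control, -0.05 for Maresin 1 against surgery and -0.02 for Maresin 1 against control, each with an SE of 0.10. Against control replicate 1 alone, surgery differed by 0.11 and Maresin 1 by 0.06. The 95% intervals run from 0.876-fold to 1.19-fold for surgery against control, from 0.828-fold to 1.12-fold for Maresin 1 against surgery and from 0.845-fold to 1.15-fold for Maresin 1 against control.

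Man1a encodes a mannosidase of the Golgi apparatus that trims N-linked sugar chains. Its values were 9.48, 9.36 and 9.58 in control, 9.51, 9.42 and 9.61 after surgery, and 9.43, 9.44 and 9.68 with Maresin 1. The 3 groups covered nearly the same range. Means were 9.47 ± 0.11 (SD, n = 3), 9.51 ± 0.09 and 9.51 ± 0.14, and no difference exceeded 0.04 (SE 0.08). Against control replicate 1 alone the differences were 0.04 for surgery and 0.03 for Maresin 1. The 95% intervals allow from 0.884-fold to 1.13-fold for Maresin 1 against surgery and from 0.912-fold to 1.17-fold for surgery against control.

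Pou3f1, also known as Oct6, encodes a transcription factor of the POU family. It was at 10.41, 10.46 and 10.38 in control, 10.45, 10.33 and 10.34 after surgery, and 10.30, 10.06 and 10.44 with Maresin 1. Maresin 1 replicates 2 and 1 were the lowest of the 9 arrays, below every surgery and control array, and replicate 3 lay among them. Maresin 1 differed from control by -0.15 (SE 0.08, unadjusted p = 0.0808, limma adjusted p = 0.512) and from surgery by -0.11 (SE 0.08). Without Maresin 1 replicate 2 these values were -0.05 and 0.00. Against control replicate 1 alone, Maresin 1 differed by -0.15 and surgery by -0.04.

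The order of the group means differed between markers. Surgery was highest and Maresin 1 lowest for Wfs1, Fibcd1 and Mpped1. Control was highest and Maresin 1 lowest for Pou3f1, and Maresin 1 was highest and control lowest for Spink8. For Man1a the operated groups had the same mean to 2 decimals, above control. Neighbouring group means differed by less than the pooled within-group SD of that marker for Wfs1, Pou3f1, Man1a and Spink8. For Fibcd1 surgery stood above control by more than that SD of 0.11, and for Mpped1 control stood above Maresin 1 by more than its SD of 0.11, both without passing the test.

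Over the 6 markers together, 5 were higher and 1 lower after surgery than in control, beside 58.4% of all genes higher, and the median difference was 0.05 against 0.02 for all genes. With Maresin 1, 5 were lower and 1 higher than after surgery, beside 58.3% of all genes lower, and the median difference was -0.08 against -0.02. Man1a, counted here as lower, was at 0.00 to 2 decimals. Against control, 4 were lower and 2 higher with Maresin 1, beside 51.0% of all genes lower, with a median of -0.06 against 0.00. Without Maresin 1 replicate 2 the median was 0.02 against surgery and 0.04 against control. With control replicate 1 as the only control, the medians were 0.01 for surgery and -0.03 for Maresin 1. These comparisons share arrays and are not independent of each other.

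In every array other than Maresin 1 replicate 2, markers lay on both sides of their group means. In Maresin 1 replicate 2 all 6 lay below their group mean, and it was the lowest of the 9 arrays for 4 of them. The share of all genes with such a pattern was not counted, so these counts are not shown to be particular to the markers. In each control array and in surgery replicate 1, 3 markers lay above the group mean and 3 below. Surgery replicate 3 had the highest Wfs1 (10.70) and Fibcd1 (9.58) of all arrays, while its Spink8 (8.04) was the lowest of its group. Control replicate 2 had the highest Pou3f1 (10.46) and also the lowest Man1a (9.36) and Spink8 (7.87) of the 9 arrays. Within-group SDs were 0.17 for Wfs1, 0.11 for Fibcd1, 0.12 for Pou3f1 and Man1a, 0.11 for Mpped1 and 0.18 for Spink8, where the median of the 13363 genes above the olfactory receptor level was 0.10. Spink8 and Wfs1 varied more than 89.4% and 86.1% of those genes, and the other markers more than 62.2% to 68.5%.

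**Figure D3:**
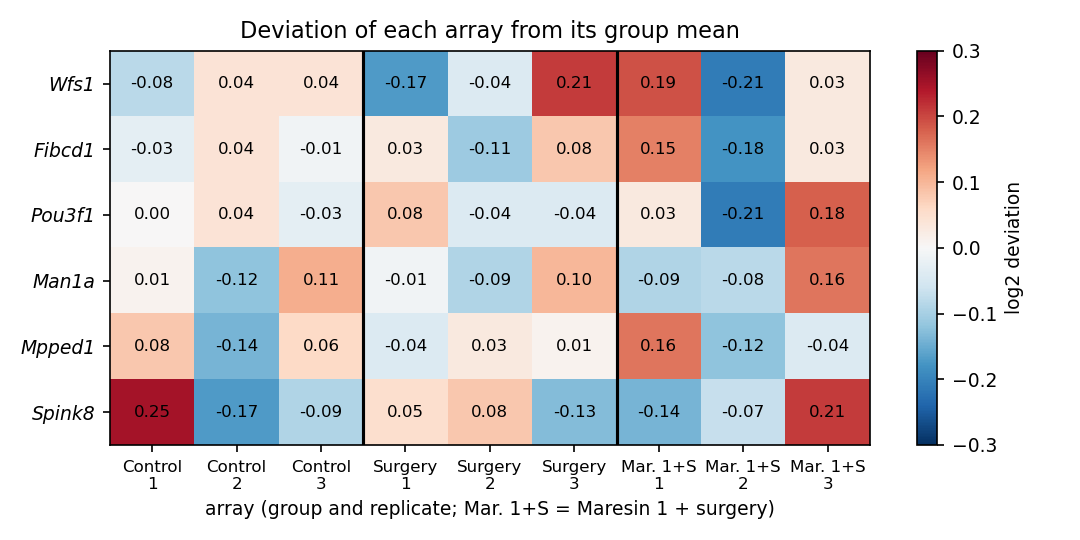
Deviation of each array from the mean of its group for the 6 markers, in log2 units, written in each cell and shown as colour (red above, blue below the mean). The column of Maresin 1 replicate 2 is below 0 for all 6 markers (-0.21 to -0.07), and the other columns hold both signs.

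Across the 9 arrays, Pearson's r was positive for 10 of 10 pairs among the markers other than Spink8, and negative for 4 of 5 pairs with Spink8. These signs depended on the measure: Spearman's rho was positive for 7 of the 10 pairs, and r without the 2 arrays farthest from the median of the first gene for 3 of 10. With group means removed, r was positive for 10 of 10 of those pairs and negative for 2 of 5 pairs with Spink8. Fibcd1 and Mpped1 were the closest pair (Pearson r = 0.69, exact permutation p = 0.0368, adjusted over 15 pairs p = 0.552; Spearman rho = 0.55, exact permutation p = 0.133, adjusted p = 0.948). Fibcd1 and Wfs1 followed (r = 0.60, exact permutation p = 0.0839, adjusted p = 0.629; rho = 0.45, exact permutation p = 0.23, adjusted p = 0.948). No pair passed the adjusted threshold. Without the 2 arrays farthest from the median of the gene first named, r was 0.30 for Fibcd1 and Mpped1. Without the 2 farthest by Wfs1 it was -0.35 for Wfs1 and Fibcd1, so that this relation rests on those arrays. With group means removed, r was 0.42 and 0.77 for these pairs.

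A score for each array is the mean over the 6 markers of the deviation from the marker's mean over all 9 arrays. It was taken as a measure of CA1 signal in the sample. Whether it follows the share of CA1 was not tested, and no pair of markers passed the adjusted threshold. The score was 0.021, -0.066 and -0.002 in control, 0.042, 0.024 and 0.089 after surgery, and 0.014, -0.181 and 0.059 with Maresin 1. All surgery arrays lay above all control arrays, with the nearest pair at 0.024 and 0.021, and Maresin 1 overlapped both groups. The separation of surgery from control was kept when Pou3f1, Man1a or Mpped1 was left out of the score, and was absent without Wfs1, Fibcd1 or Spink8. Against control replicate 1 alone the mean score differed by 0.03 for surgery and by -0.06 for Maresin 1. Leaving out each marker in turn, the score of Maresin 1 replicate 2 stayed between -0.23 and -0.16 and was the lowest of the arrays each time. Relative to 6 measured pan-neuronal genes, such as the synaptic genes Snap25 and Syt1, the mean score differed between surgery and control by 0.06, between Maresin 1 and surgery by -0.07 and between Maresin 1 and control by 0.00, against 0.07, -0.09 and -0.02 without that reference.

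Other genes enriched in CA1 were measured for 3 of 4 listed, and 0 of 3 passed the test in any comparison. The matricellular gene Ccn3, at 10.71, 10.25 and 10.74 in control, 10.80, 10.76 and 10.70 after surgery and 10.51, 10.44 and 10.57 with Maresin 1, was lower with Maresin 1 than after surgery without overlap (log2 -0.25, SE 0.10, unadjusted p = 0.0284, limma adjusted p = 0.859). The orphan receptor gene Gpr161 differed by -0.17 (SE 0.08) and the heparan sulphate sulphotransferase gene Ndst4 by 0.05 (SE 0.10). Ccn3 and Gpr161 had the sign of Fibcd1 and Mpped1, and Ndst4 that of Spink8. The score of these 3 genes was 0.11, -0.25 and 0.04 in control and 0.05, 0.07 and 0.11 after surgery. With Maresin 1 it was -0.08, -0.10 and 0.04. Its lowest array was thus control replicate 2, where that of the markers was Maresin 1 replicate 2. The score of these genes and that of the markers correlated over the 9 arrays with r = 0.67 and rho = 0.73. After group means were removed r was 0.56, as a description.

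The neighbouring fields bear on the share of CA1 in a sample. Dentate granule neuron genes, 12 of 12 measured, had scores of -0.26, 0.11 and -0.01 in control, -0.03, -0.08 and -0.04 after surgery, and 0.03, 0.17 and 0.11 with Maresin 1. The array with the lowest CA1 score, Maresin 1 replicate 2, thus had the highest dentate score. The CA1 score minus the dentate score was 0.28, -0.18 and 0.00 in control, 0.08, 0.10 and 0.13 after surgery, and -0.02, -0.35 and -0.05 with Maresin 1. It was above 0 in all surgery arrays and below 0 in all Maresin 1 arrays, and the control arrays ranged from -0.18 to 0.28. Surgery and Maresin 1 overlapped when CA3 genes or pan-pyramidal and pan-excitatory genes were the reference. The CA1 score minus the CA3 score was 0.03, 0.16 and 0.07 after surgery, and 0.10, -0.22 and 0.10 with Maresin 1. Minus the score of the pan-pyramidal and pan-excitatory genes, it was 0.04, 0.01 and 0.05 after surgery, and 0.06, -0.08 and 0.06 with Maresin 1. That list, called pan-pyramidal below, is not limited to pyramidal neurons. Of the 12 dentate genes 10 had a higher mean in the Maresin 1 group than in the surgery group, beside 41.7% of all genes, and 0 passed the test. At an unadjusted p under 0.05 in limma's test stood 3 that were higher and 1 that was lower, where 5.66% of all genes did so in either direction. Among the most abundant of them, Stxbp6 differed by 0.21 (SE 0.11), the synaptic organiser gene C1ql2 by 0.25 (SE 0.15) and the lipid synthesis gene Dgat2 by 0.01 (SE 0.05).

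CA3 genes, 8 of 8 measured, scored 0.01, 0.12 and 0.06 in control, 0.02, -0.14 and 0.02 after surgery and -0.08, 0.04 and -0.04 with Maresin 1, and 0 of 8 passed the test in any comparison. After surgery 7 of 8 were lower than in control, beside 41.6% of all genes, with a median of -0.12 against 0.02. With Maresin 1, 5 of 8 were lower than after surgery, a gene at 0.00 among them, beside 58.3%. Against control 7 of 8 were lower with Maresin 1, beside 51.0%. The kainate receptor subunit gene Grik4 was at a difference of -0.13 (SE 0.06) for surgery against control and -0.02 (SE 0.06) for Maresin 1 against surgery. CA2 genes, 4 of 6 measured, had 0 called genes and medians of 0.02 to 0.05 in the 3 comparisons, with Pcp4, a calmodulin regulator, at 0.01, 0.03 and 0.05. Of the pan-pyramidal genes, 6 of 6 were measured. With Maresin 1, 6 of 6 were lower than after surgery, with Camk2a at 0.00 among them, beside 58.3% of all genes. Their median was -0.06 against -0.02 for all genes, and 0 passed the test. The vesicular glutamate transporter gene Slc17a7 differed by -0.08 (SE 0.03, unadjusted p = 0.0411) and the kinase gene Camk2a by 0.00 (SE 0.03).

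**Figure D4:**
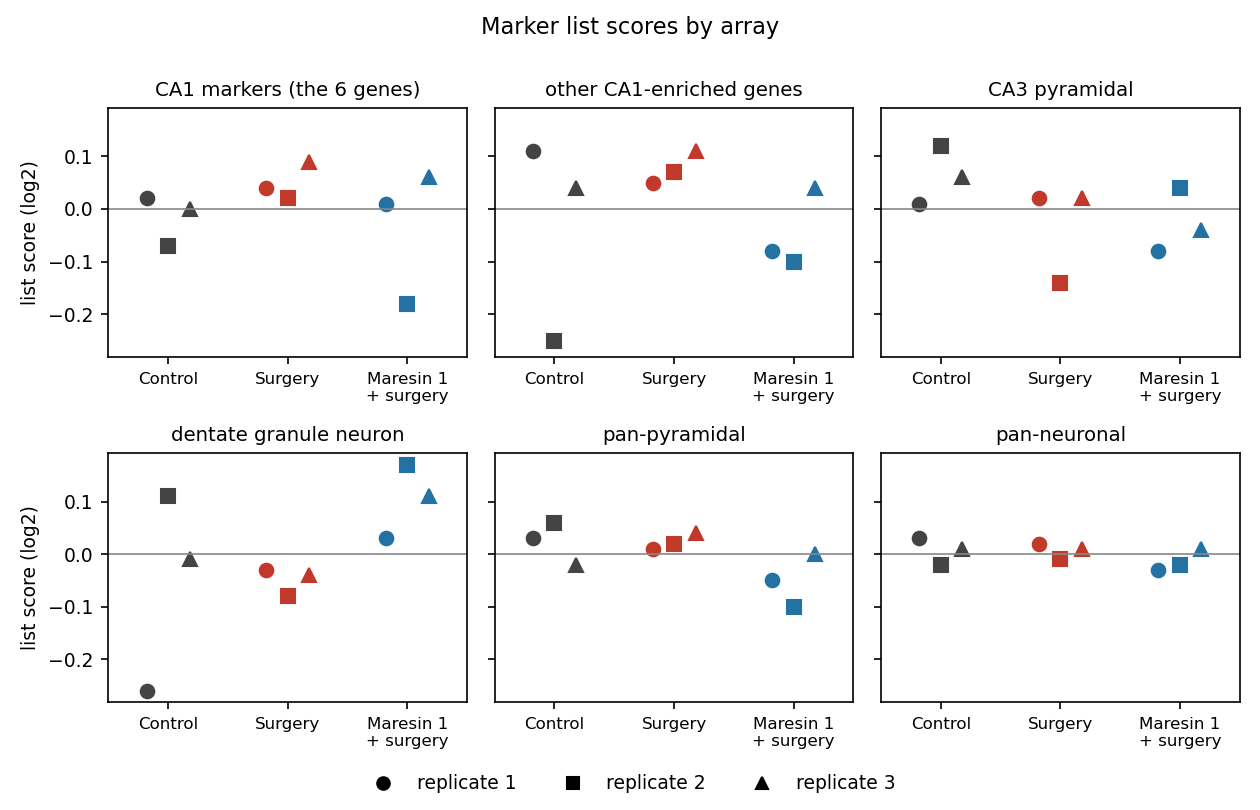
Score of 6 marker lists in each array: the mean over the genes of a list of the log2 deviation from the gene's mean over all arrays. Points are arrays and shapes are replicate numbers. CA1 scores of surgery (0.024 to 0.089) lie just above those of control (-0.066 to 0.021) and within the range of Maresin 1 at all but 1 array, dentate scores of surgery (-0.08 to -0.03) and Maresin 1 (0.03 to 0.17) do not overlap, and pan-neuronal scores lie between -0.03 and 0.03.

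Control replicate 2 was the lowest array for several other lists. For the subiculum, the field that adjoins CA1, the score of 5 genes was -0.59 there and -0.10 to 0.26 in the other 8 arrays, with the vesicular glutamate transporter gene Slc17a6 at 7.12 against 7.69 to 8.27. Its score of neocortical layer genes was -0.34 against -0.20 to 0.16 elsewhere, and that of inhibitory interneuron genes -0.16 against -0.11 to 0.13. The same array had the lowest score of the other CA1-enriched genes, -0.25, beside a score of -0.07 for the 6 markers. Over the 17 other lists, the score of the markers had its highest correlations over the 9 arrays with the other CA1-enriched genes (r = 0.67), the pan-pyramidal genes (r = 0.58, rho = 0.35) and the pan-neuronal genes (r = 0.54, rho = 0.62), and its lowest with the dentate genes (r = -0.54, rho = -0.55) and the CA3 genes (r = -0.38, rho = -0.48). The endothelium list, at r = 0.53 and rho = 0.47, had the highest r of the 17 lists once group means were removed, 0.75 against 0.56 for the other CA1-enriched genes. It also had its lowest score among operated mice in Maresin 1 replicate 2, -0.17 against 0.13 to 0.32. In the same array the pan-pyramidal genes had their lowest score of the 9 arrays, -0.10, and the dentate genes their highest, 0.17. The part of these lists in the marker levels was not tested. All these values come from the same 9 arrays and the same normalization, and are given as a description.

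Genes whose levels followed the marker score most closely were sought among 12772 genes above the olfactory receptor level. With group means removed, these were Ikbke and Tmem14c (r = 0.99), Fam168b and Arhgap31 (r = 0.98), and Hs6st3 and Lama2 (r = 0.96). With group means kept, they were Snai1 (r = 0.93), Hoxa4 (r = 0.91), Rassf10 and Tlr9 (r = 0.90), Tbc1d10a (r = 0.89) and Ikbke (r = 0.88). Of the 11 genes, Ikbke was in both sets. Each r is over 9 arrays and is the highest of many. The marker score was -0.181 in Maresin 1 replicate 2 and -0.066 to 0.089 in the other arrays. Here and for the lists, no r with that score is given without this array. Ikbke (5.99), Rassf10 (6.03) and Snai1 (6.15) had mean levels close to the olfactory receptor level of 5.86.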

How the data were processed

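RNA of 9 hippocampi, 6 µg of total RNA each, was hybridized to Affymetrix arrays, 3 per group. Groups were taken from the titles. The deposited values are intensity, a linear signal per probe set, which the authors made, per the submitters' processing notes, with Affymetrix Expression Console. Its version and method are not stated in the sources used here. Array medians differed by 1.85-fold, so the arrays had not been brought to one level. The 35556 probe sets were quantile normalized, 16 was added and log2 taken. Of the probe sets, 21218 name 1 gene, 1881 several and 12457 are not listed with a gene; 21185 matched the gene table by identifier. The probe set with the highest mean stood for a gene.

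One model over all 9 arrays was fitted with limma 3.58.1 in R 4.3.3, with the prior variance as a trend on level, two-sided, and p was adjusted over all 18820 genes of a comparison. The pipeline was run on simulated data, with noise drawn separately for each gene and added differences larger than those of the markers. It therefore does not show whether differences of the size seen in the markers would be called. Arrays have no read depth; their number, 3 per group, limits the precision, and p-values measure only the spread between these samples. The markers and the other lists were chosen with earlier results of these data known. Besides the markers, at most 3 genes of a list are named, those with the highest mean level, and the 6 genes with the highest correlation with the marker score, with and without group means. Gene models, microRNA, small nucleolar RNA and olfactory, vomeronasal and trace amine receptor genes were left out of that search. Alternatives were other normalizations, added constants of 1 and 64, a filter on dim genes, the mean of all probe sets of a gene, other variance priors, fits on only the groups compared, a replicate block and leaving out each array. A fit with control replicate 1 as the only control was added after seeing the data, and there its spread is assumed to be that of the other groups. Replicate numbers are shared by the groups, but nothing in the labels pairs the samples. Promoter windows came from RefSeq, build GRCm38.p6; the sources used here name no build for the array.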

Additional observations from a re-analysis of the deposited data

How the results depend on the processing

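The count of markers called was 0 in each of the 3 comparisons under all 21 alternatives and the main setting, with the lowest adjusted p 0.110 for Spink8 in Maresin 1 against control without control replicate 1. Fibcd1 stayed higher after surgery than in control (0.14 to 0.35) and lower with Maresin 1 than after surgery (-0.42 to -0.19), and Mpped1 stayed lower with Maresin 1 than after surgery (-0.38 to -0.16) and than in control (-0.24 to -0.09). The median of the markers for surgery against control was 0.18 with arrays centred on their median and 0.21 with signals scaled to one median, and for Maresin 1 against surgery -0.22 and -0.24, while the median of all genes was at 0.10 and -0.09 under either; the cause was not tested. Pou3f1 changed sign in surgery against control under these settings, to 0.09 and 0.12. With control replicate 1 as the only control, Mpped1 (-0.01) and Spink8 (-0.12) changed sign in surgery against control and Wfs1 (0.06) in Maresin 1 against control. Leaving out each array, the median ranged from 0.02 to 0.10 for surgery against control, from -0.14 to 0.02 for Maresin 1 against surgery and from -0.14 to 0.04 for Maresin 1 against control, the upper ends of the last 2 without Maresin 1 replicate 2. Single markers that changed sign ranged, in the same order of comparisons, from -0.08 to 0.11, -0.15 to 0.05 and -0.12 to 0.08 for Wfs1, and from -0.01 to 0.10, -0.08 to 0.05 and -0.04 to 0.10 for Man1a, and Mpped1 ranged from -0.01 to 0.10 for surgery against control. With the replicate number as a block, medians were 0.05, -0.08 and -0.06 and no marker call changed; genes called in Maresin 1 against control numbered 0 in place of 16. Deviations of same-numbered arrays correlated at -0.24 to 0.05, and 0 of 9 arrays correlated best with its own number. These correlations show no sign of pairing by number, but cannot exclude a pairing in the design. Over all genes, the called count for surgery against control was 0, and 67 with arrays centred, 37 with signals scaled, 42 without normalization and 167 without control replicate 1; for Maresin 1 against control it was 16, and 63, 38, 43 and 244 under the same settings, 0 in fits on only the groups compared and with the variance prior without a trend, 4 with control replicate 1 as the only control, 15 without control replicate 3, and 0 to 3 without any other single array.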
